A study of Homo sapiens with 12 samples.

Results

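Doxorubicin, an anthracycline that damages DNA and is used against cancer, is known for its toxicity to heart muscle cells, and the BCL2 family decides at the mitochondrial outer membrane whether a damaged cell dies by apoptosis. The mRNAs of 10 members of that family were measured in AC16 cells without the drug and after 3 lengths of exposure to it. The members were taken by name: the pore-forming effectors BAX and BAK1, the BH3-only genes BBC3 (PUMA), PMAIP1 (NOXA), BCL2L11 (BIM), BID and BMF, and the pro-survival genes BCL2, BCL2L1 (BCL-X) and MCL1. They made up 10 of the 60607 rows of the count table, 7 of them pro-death and 3 pro-survival. The choice was made with earlier results of these data known. All 10 were found and all passed the filter on low counts, which left 17320 genes to test.

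In the intrinsic pathway, pro-survival members hold BAX and BAK1 inactive, BH3-only proteins are induced or modified by stress and bind the pro-survival members or the effectors, and free effectors then open the outer membrane and release cytochrome c. PUMA and BIM bind every pro-survival member, whereas NOXA binds mainly MCL1, and transcription of BAX, BBC3 and PMAIP1 is known to rise after DNA damage. Heart muscle cells are long-lived and are known to depend on MCL1 and BCL-X. Much of the control of the family lies in protein turnover, phosphorylation, cleavage of BID and splicing, none of which a count of reads per gene can show, since the BCL-XL and BCL-XS forms of BCL2L1, for example, share 1 count.

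AC16 is an immortalised human line, labelled here as wild-type cardiomyocytes and kept in DMEM/F12 with fetal bovine serum and antibiotics. Control cells had medium alone, and the other 3 groups had 0.1 µM doxorubicin before harvest for 2, 4 or 6 days. Sample titles give 48, 96 and 112 hours for these groups, and every title, the control's included, also names day 6. Below, day 2, day 4 and day 6 stand for the length of exposure, not for a day of harvest, and the longest is named by day although its length differs between the labels. Each of the 4 groups had 3 libraries made from total RNA, and nothing in the labels says that the 3 came from separate cultures, so p-values reflect only how much these libraries vary, and that variation may be technical.

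Libraries held between 14835743 and 21226441 counts, and the share of mitochondrial transcripts ran from 5.51% to 8.34%. Control replicate 2 (8.26%) and day 2 replicate 3 (5.51%) stood apart from their groups in that share. Counts of members that differed from the control are given with both and without both. Some other results that changed without 1 or both of them are given too. CDKN1A and MDM2, genes known to be induced by DNA damage and used as a check of the exposure, rose from 198 ± 31.4 and 162 ± 14.6 CPM (counts scaled to library size, SD, n = 3) in the control to 2300 ± 228 and 2227 ± 225 CPM at day 2. Of 12 cardiomyocyte markers only TTN reached 1 CPM in any group, the list summed to between 9.06 and 19.8 CPM, and MYL2 had 0 counts in every library. All 10 fibroblast markers exceeded 1 CPM, with a summed level of 7816 to 8527 CPM in the control, 11780 to 12110 at day 2, 10130 to 10660 at day 4 and 8702 to 9149 at day 6. Singly, 7 of these markers rose and 1 fell at day 2, but 3 rose and 5 fell at day 4 and 2 rose and 6 fell at day 6 (medians 0.34, -0.26 and -0.39), so the higher sums at the later times do not stand for most of the list. The smooth muscle list summed to 223 to 272 CPM in the control and 495 to 509 at day 2. At day 4 it summed to 387.5 to 426 CPM and at day 6 to 333 to 378.5, where 2 of its genes rose and 3 fell. The epithelial list went from between 94.9 and 128 CPM to between 254 and 279 at day 2, where 3 genes rose and 1 fell. In it KRT18 went from 66.8 to 193 CPM at day 2. The epithelial list summed to 87.2 to 114 CPM at day 4 and 83.2 to 89.9 at day 6, where 1 gene rose and 2 fell at each time. The immune list summed to 4.95 to 7.42 CPM in the control and 11.5 to 13.2 at day 6. The part of these lists in the changes of the BCL2 family was not tested. In these bulk libraries, fewer cells of a type and less RNA per cell cannot be told apart.

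Per length of gene, the family spanned a wide range of levels in unexposed cells. MCL1 was the most abundant at 116 ± 10.4 RPKM (reads per length and depth, over the union of the gene's exons, SD, n = 3), followed by PMAIP1 at 51.2 ± 3.35, BAX at 23.0 ± 2.92, BCL2L1 at 16.7 ± 2.66 and BAK1 at 11.2 ± 1.10 RPKM. BID stood at 6.08 ± 0.85 RPKM, and BCL2L11, BBC3 and BMF lay close together at 1.25, 1.20 and 1.05 RPKM, each overlapping its neighbour. BCL2, the founding member, was the lowest of the 10 at 0.777 ± 0.066 RPKM. Among the pro-survival mRNAs MCL1 held 86.9% of the summed control RPKM, BCL2L1 12.5% and BCL2 0.581%. The lengths matter for these levels: with the longest transcript as the length, BAX had 43.7 RPKM in the control in place of 23.0, and BBC3 2.08 RPKM, then above BCL2L11 at 1.59. BMF and BCL2 then stood next to each other, at 1.23 and 1.22 RPKM.

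**Figure D1:**
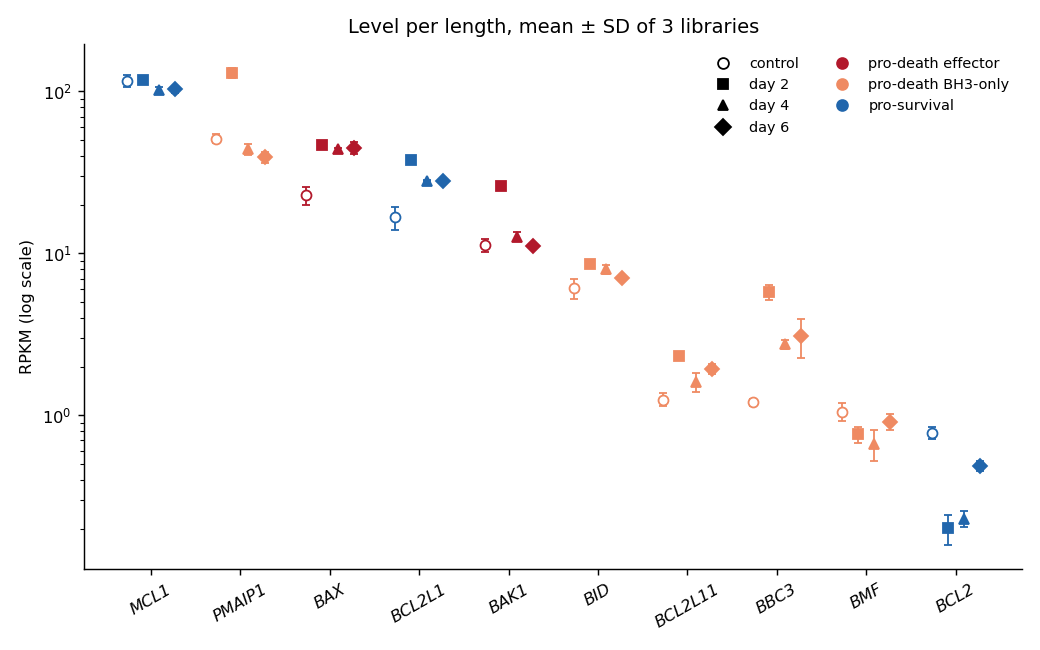
Level of each member per length (RPKM over the exon union, log scale, mean ± SD of 3 libraries) in the control, at day 2, at day 4 and at day 6. MCL1 leads in the control at 116 RPKM, PMAIP1 reaches 130.5 RPKM at day 2, and BCL2 is the lowest member in all 4 groups.

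Most of the family differed from the control after 2 days of exposure. Since its members were chosen with earlier results known, counts set beside shares of all genes are descriptions, not tests of the family. By edgeR's quasi-likelihood test with Benjamini-Hochberg adjustment over all 17320 genes, 9 of the 10 members differed from the control at an adjusted p under 0.05, against 47.2% of all genes. Of these, 7 rose, against 23.8% of genes, and BCL2 and BMF fell, against 23.4%. BBC3, PMAIP1, BAK1, BCL2L1 and BAX at least doubled, a rise of that size being seen in 8.27% of genes, and BCL2 fell by more than a factor of 2, as did 5.33% of genes. The median log2 fold change was 1.02 over the 7 pro-death members and 0.02 over the 3 pro-survival members, with a median of -0.01 over all genes tested. Without control replicate 2 and day 2 replicate 3, left out together after their mitochondrial shares were seen, 9 members still differed. With library totals as the only scaling, the all-gene median shifted to -0.14 and the higher genes made up 37.3% of those called in place of 50.4%, and 7 members rose there too. The libraries of 9 members did not overlap between day 2 and control, as for 52.2% of genes.

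At day 4, 8 of 10 members differed from the control (36.5% of genes), 5 higher (18.8%) and 3 lower (17.7%), and the median over the pro-death members was 0.35. BBC3 was at least doubled (5.53% of genes), BCL2 was at most 0.5 of the control level (3.57%), and 8 members had libraries that did not overlap with the control (44.6%). At day 6, 6 members differed (43.7% of genes), BAX, BBC3, BCL2L11 and BCL2L1 higher (22.0%) and PMAIP1 and BCL2 lower (21.7%), with a pro-death median of 0.22. BBC3 was again at least doubled (7.75%), the largest fall, 1.59-fold in BCL2, was short of the factor of 2 by which 4.60% of genes fell, and 6 members had no overlap with the control (50.9%). Without those same 2 libraries the counts were 9 at day 4 and 8 at day 6. These 3 comparisons share the 3 control libraries, so they are not independent of each other. When the 4 groups were tested together, all 10 members differed (63.4% of genes), PMAIP1 with the smallest adjusted p (5.36e-15) and MCL1 with the largest (0.0368).

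**Figure D2:**
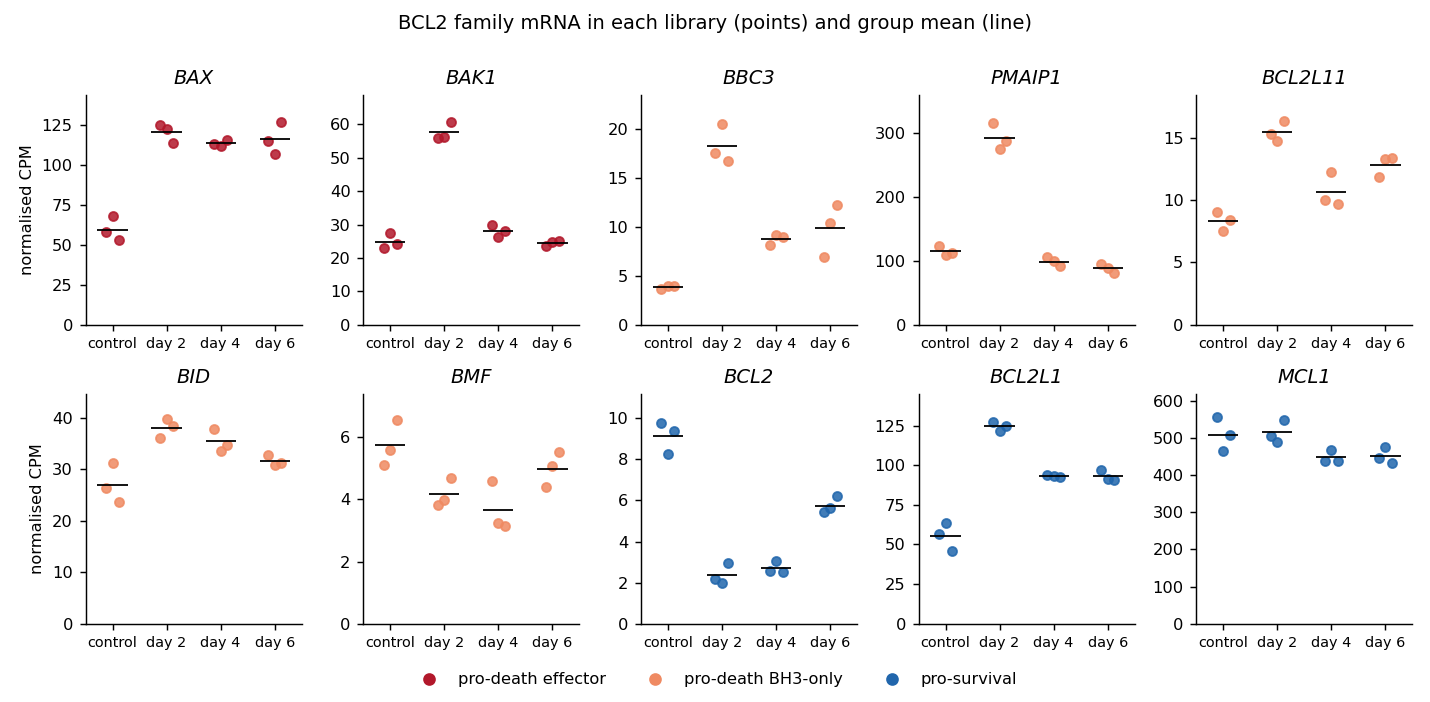
Normalised CPM of each member in each of the 12 libraries (points) with the group mean (line), each panel on its own axis from 0. BAX and BCL2L1 stay above the control at every time, PMAIP1 and BAK1 peak at day 2 and return, and BCL2 falls at day 2 and is partly back at day 6.

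BAX and BAK1 are the 2 effectors, whose oligomers perforate the outer membrane. BAX (ENSG00000087088.20, chromosome 19, 48954815 to 48961798, plus strand, GRCh38) read 58.0, 67.6 and 52.7 CPM in the control libraries and 125, 122 and 114 CPM at day 2. At day 4 it read 113, 111 and 115 CPM, and at day 6 115, 107 and 127 CPM. Every exposed library lay above every control library, and the 3 exposed groups overlapped each other. BAX rose 2.03-fold at day 2 (log2 1.02 ± 0.09 SE, adjusted p = 1.17e-09) and remained 1.91-fold higher at day 4 (adjusted p = 9.64e-09) and 1.95-fold higher at day 6 (adjusted p = 3.42e-09). Between day 2 and day 6 the log2 difference in BAX was -0.05 (adjusted p = 0.66), and it was 0.11 when scaled by library totals alone.

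BAK1 (ENSG00000030110.13, chromosome 6, 33572547 to 33580293, minus strand) followed another course. Its control libraries read 22.9, 27.6 and 24.2 CPM, and day 2 gave 56.1, 56.2 and 60.7 CPM, a 2.32-fold rise (log2 1.21 ± 0.09, adjusted p = 9.55e-11). At day 4 it read 29.8, 26.3 and 28.1 CPM and at day 6 23.7, 24.9 and 25.0 CPM, both overlapping the control range. From day 2 to day 4 BAK1 fell by 1.04 on the log2 scale (adjusted p = 3.52e-09). Its difference from the control was 0.17 at day 4 (95% interval -0.02 to 0.37, adjusted p = 0.163) and -0.02 at day 6 (-0.22 to 0.18, adjusted p = 0.891). Without control replicate 2 the day 4 difference was 0.26 and passed the test (adjusted p = 0.047, with 0.047 to 0.464 over all 20 alternatives), and at day 6 its sign turned to 0.06, as it did to 0.02 with library totals. Both effectors rose at day 2, and BAX passed the test later too, though the difference between the 2 genes was not tested.

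The sequences before the starts of the 4 pro-death genes that at least doubled at day 2 are printed because these genes had the largest pro-death rises. They are RefSeq promoter sequence of GRCh38.p14 on the gene's own strand, 5′ to 3′, and each was shortened to end before the first base of any annotated exon of that gene. Capitals mark CACGTG, a palindrome searched for after the sequences had been seen and present in the BAX and BBC3 stretches.
BAX (chr19:48954625-48954814, plus): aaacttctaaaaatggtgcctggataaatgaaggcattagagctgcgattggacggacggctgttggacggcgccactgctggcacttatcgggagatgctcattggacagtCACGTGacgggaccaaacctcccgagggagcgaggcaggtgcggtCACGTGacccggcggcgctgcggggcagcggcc
BAK1 (chr6:33580294-33580526, minus): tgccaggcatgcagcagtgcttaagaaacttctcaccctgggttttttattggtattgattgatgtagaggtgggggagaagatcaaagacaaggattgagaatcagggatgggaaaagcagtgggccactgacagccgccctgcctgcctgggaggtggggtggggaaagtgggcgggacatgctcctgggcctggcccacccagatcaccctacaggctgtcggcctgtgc
BBC3 (chr19:47232767-47232917, minus): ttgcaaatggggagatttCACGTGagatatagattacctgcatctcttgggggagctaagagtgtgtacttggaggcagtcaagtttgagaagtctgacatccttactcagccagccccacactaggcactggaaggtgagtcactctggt
PMAIP1 (chr18:59899746-59899947, plus): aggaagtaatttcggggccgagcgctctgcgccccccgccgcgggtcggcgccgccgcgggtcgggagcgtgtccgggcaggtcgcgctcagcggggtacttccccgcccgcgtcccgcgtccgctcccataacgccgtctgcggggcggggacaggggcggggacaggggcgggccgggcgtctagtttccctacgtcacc

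The windows searched ran from 250 bases before to 50 after each start, and 9 of the 10 members had an entry, with 15 windows in all, none of them for MCL1. Windows of 3 members (BAX, BBC3 and BID) held this motif. CACGTG occurred 4 times in the BAX window, 2 of them in the stretch printed, whereas 7.3% of all 35116 promoters held it at least 1 time and 5 promoters (0.0142%) at least 4 times. The motif was picked after the sequences had been seen, so its rarity is no test of the BAX window. The 3 members are counted by gene, while the shares are by promoter. A match of letters in these windows is a description, and no binding was measured in these libraries.

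BBC3 and PMAIP1 encode the BH3-only proteins known to be induced transcriptionally by DNA damage. BBC3 (ENSG00000105327.18, chromosome 19, 47220822 to 47232766, minus strand) was scarce in the control at 3.63, 3.94 and 3.90 CPM and reached 17.5, 20.5 and 16.8 CPM at day 2. It had the largest fold rise of the 10 at day 2, 4.77-fold (log2 2.25 ± 0.17, adjusted p = 7.90e-11). At day 4 it read 8.14, 9.12 and 8.95 CPM, and at day 6 6.95, 10.4 and 12.2 CPM. Both later groups stood above all control libraries and below all day 2 libraries, at 2.29-fold (adjusted p = 1.03e-05) and 2.59-fold (adjusted p = 7.41e-07) of the control. The day 6 libraries were the most spread, and the step from day 4 to day 6 did not pass the test (log2 0.18 in BBC3).

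PMAIP1 (ENSG00000141682.12, chromosome 18, 59899948 to 59904306, plus strand) started from a much higher level. The control libraries read 123, 108 and 112 CPM, and day 2 gave 314, 274 and 287 CPM, a 2.55-fold rise (log2 1.35 ± 0.09, adjusted p = 2.25e-12). It then dropped to 106, 98.8 and 90.9 CPM at day 4 and 94.1, 88.7 and 80.2 CPM at day 6. Every day 2 library was at least double every day 4 library, and every day 6 library lay below every control library. The fall from day 2 to day 4 was 1.57 on the log2 scale (adjusted p = 8.69e-13), the largest of the family. At day 6 PMAIP1 fell by 0.38 against the control (± 0.09, adjusted p = 0.000688), so that it crossed from above to below the unexposed level.

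The shortfall of PMAIP1 at day 4 was smaller and depended on single libraries and on the method. It fell by 0.22 on the log2 scale against the control (adjusted p = 0.0476), and the adjusted p ran from 0.0157 to 0.216 over 20 alternatives, 13 of which did not pass. With all libraries kept, it did not pass by DESeq2 (0.0539), with scaling of the DESeq2 type (0.0527) or with no low-count filter (0.0851). Fitting the compared groups alone gave 0.0783. Leaving out control replicate 1 ended the call (adjusted p = 0.192), as did control replicate 3 (0.0778), day 4 replicate 2 (0.0996) and day 4 replicate 3 (0.216), and it was narrowly lost without day 2 replicate 1 (0.0561), replicate 2 (0.0577) or replicate 3 (0.0549) or day 6 replicate 1 (0.055) or replicate 2 (0.0608).

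BCL2L11 encodes BIM, a strong BH3-only activator held in check by survival signals. Its mRNA (ENSG00000153094.24, chromosome 2, 111119378 to 111168447, plus strand) read 9.08, 7.55 and 8.39 CPM in the control and 15.3, 14.8 and 16.3 CPM at day 2, a 1.85-fold rise (log2 0.89 ± 0.13, adjusted p = 3.3e-06). At day 4 the libraries read 10.0, 12.3 and 9.66 CPM, and at day 6 11.9, 13.3 and 13.4 CPM. All day 2 libraries were above all others, and the day 6 libraries were above the control (1.54-fold, adjusted p = 0.00035). The day 4 rise (log2 0.35 ± 0.13, adjusted p = 0.0412) did not pass when control replicate 2 was left out (adjusted p = 0.129), nor when control replicate 3 (0.0858) or day 4 replicate 2 (0.217) was, within 0.0301 to 0.217 over 20 alternatives. With all libraries kept, this rise was not called under library totals (0.065) or with no low-count filter (0.0974), and the compared groups alone gave 0.0783. Of the BCL2L11 exon bases, 10.9% are shared with MIR4435-2HG on the opposite strand, which had 1013 to 1839 counts a library, and reads of the 2 cannot be told apart without strand.

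BID links death receptors to mitochondria once caspase 8 has cut it, and BMF is known as a BH3-only protein released from the cytoskeleton under stress. BID (ENSG00000015475.19, chromosome 22, 17734138 to 17774770, minus strand) read 26.3, 31.1 and 23.7 CPM in the control, 36.1, 39.7 and 38.3 at day 2, 37.8, 33.6 and 34.8 at day 4 and 32.7, 30.9 and 31.2 at day 6. It rose 1.41-fold at day 2 (log2 0.49 ± 0.10, adjusted p = 0.000241) and 1.31-fold at day 4 (adjusted p = 0.00331), with no overlap with the control at either time. At day 6 control replicate 2 lay within the range of the exposed libraries and the difference did not pass the test (log2 0.22, 95% interval 0.02 to 0.43, adjusted p = 0.0743). Without control replicate 2 the day 6 difference in BID was 0.34 and passed (adjusted p = 0.00825), within 0.00825 to 0.348 over 20 alternatives.

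BMF (ENSG00000104081.14, chromosome 15, 40087890 to 40108892, minus strand) was the single pro-death member that fell at day 2. It read 5.11, 5.58 and 6.54 CPM in the control, 3.83, 3.97 and 4.68 at day 2, 4.58, 3.24 and 3.13 at day 4 and 4.39, 5.07 and 5.51 at day 6. The day 2 and day 4 libraries were all below the control, and day 6 overlapped it. BMF fell by 0.65 on the log2 scale at day 4 (± 0.19, adjusted p = 0.00807), and its day 6 difference was -0.19 (95% interval -0.56 to 0.18, adjusted p = 0.405).

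The day 2 call for BMF was the least firm of the 9: it fell by 0.46 (± 0.18, adjusted p = 0.0425), and 10 of 20 alternatives did not pass (0.0107 to 0.171). With all libraries kept, the call was lost by DESeq2 (0.0577) and with no low-count filter (0.101), and the compared groups alone gave 0.051. Leaving out control replicate 3 ended it (adjusted p = 0.171), as did day 2 replicate 1 (0.151) and replicate 2 (0.109), and it narrowly failed without control replicate 2 (0.0528), day 4 replicate 2 (0.0508) or day 6 replicate 2 (0.0503). The difference in BMF among the 4 groups (adjusted p = 0.018) was lost without control replicate 3 (0.0732), day 4 replicate 2 (0.0596) or day 4 replicate 3 (0.0584).

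The 3 pro-survival genes went 3 separate ways. BCL2 (ENSG00000171791.14, chromosome 18, 63123346 to 63320128, minus strand), which encodes the protein that gives the family its name, read 9.76, 8.27 and 9.38 CPM in the control and 2.17, 1.99 and 2.94 CPM at day 2. At day 4 it read 2.55, 3.06 and 2.53 CPM, and at day 6 5.42, 5.61 and 6.21 CPM. All exposed libraries were below all control libraries, and all day 6 libraries were above all those of day 2 and day 4. BCL2 was 3.86-fold lower at day 2 (log2 -1.95 ± 0.18, adjusted p = 2.48e-09), 3.38-fold lower at day 4 (adjusted p = 1.67e-08) and 1.59-fold lower at day 6 (adjusted p = 0.00141). These levels rest on few reads, 29 counts in the lowest library.

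BCL2L1 (ENSG00000171552.14, chromosome 20, 31664452 to 31723989, minus strand) moved opposite to BCL2. It read 56.8, 63.3 and 45.8 CPM in the control, 128, 122 and 125 at day 2, 93.9, 93.4 and 92.6 at day 4 and 96.8, 91.2 and 90.9 at day 6. Every exposed library exceeded every control library, and day 2 exceeded both later groups, which overlapped. The rise was 2.26-fold at day 2 (log2 1.17 ± 0.09, adjusted p = 1.18e-10), 1.69-fold at day 4 (adjusted p = 3.92e-07) and 1.68-fold at day 6 (adjusted p = 3.1e-07). Of its exon bases, 43.0% lie opposite ABALON, an antisense gene with 0 to 9 counts a library. Reads from the shared bases cannot be told apart without strand, and the strand setting is not given. The low ABALON counts therefore do not settle whether the BCL2L1 level was affected.

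MCL1 (ENSG00000143384.14, chromosome 1, 150574551 to 150579738, minus strand), whose short-lived protein is the main partner of NOXA, had the smallest difference of the 10 at day 2. It read 555, 464 and 508 CPM in the control, 505, 490 and 549 at day 2, 437, 468 and 438 at day 4 and 445, 474 and 431 at day 6. Day 2 lay within the control range, and control replicate 2 lay within the ranges of both later groups. The log2 difference from the control was 0.02 at day 2 (95% interval -0.15 to 0.18, adjusted p = 0.887), with the sign turning to -0.11 under library totals and -0.05 without control replicate 2. It was -0.18 at day 4 (-0.35 to -0.02, adjusted p = 0.0697) and -0.18 at day 6 (-0.34 to -0.01, adjusted p = 0.0724).

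Whether the later differences in MCL1 passed the test depended on the setting. Without control replicate 2 they were -0.25 (adjusted p = 0.012, 0.0073 to 0.308 over 20 alternatives) and -0.24 (adjusted p = 0.0126, 0.00777 to 0.304). With all libraries kept and library totals as the only scaling, MCL1 passed at day 4 (-0.22, adjusted p = 0.0291). The difference of MCL1 among the 4 groups (adjusted p = 0.0368) was lost without control replicate 1 (0.0648) or 3 (0.06), day 2 replicate 1 (0.0567) or 3 (0.0906), day 4 replicate 1 (0.081) or 3 (0.0792), or day 6 replicate 1 (0.0754) or 3 (0.0776), and under library totals (0.092).

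**Figure D3:**
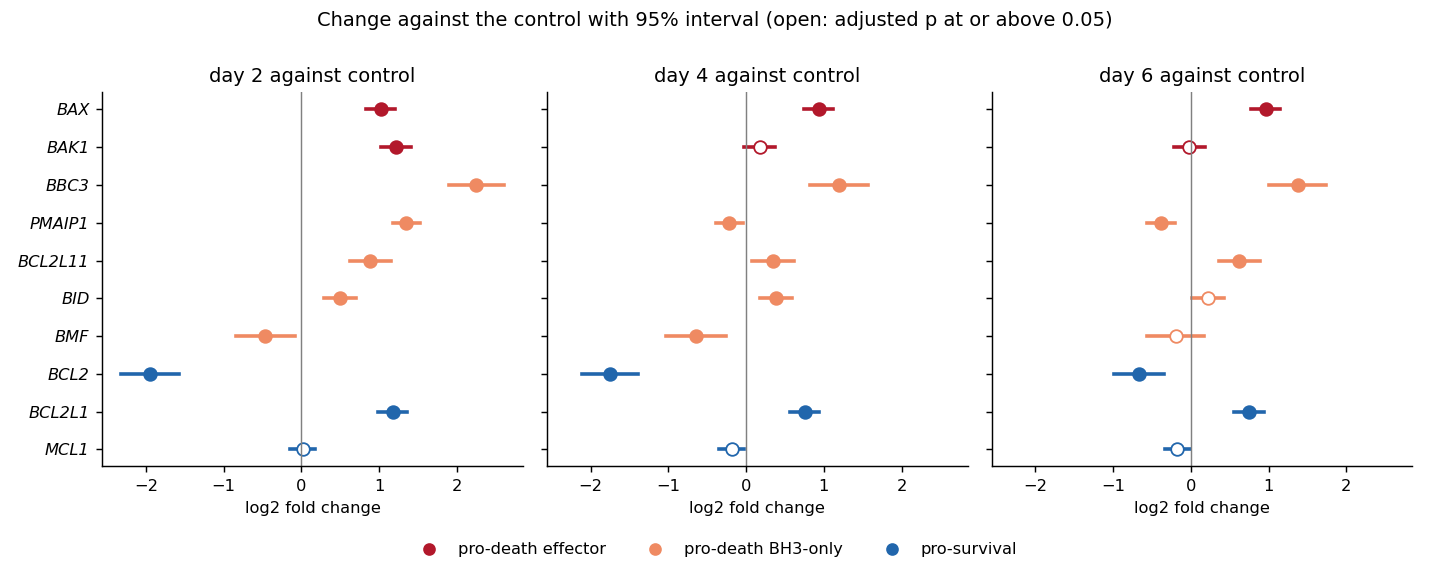
Log2 fold change of each member against the control at day 2, day 4 and day 6 with its 95% interval, open where the adjusted p was 0.05 or above. BBC3 has the largest rise at each time (2.25, 1.19 and 1.37) and BCL2 the largest fall (1.95, 1.76 and 0.67).

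Comparing the exposed groups with each other showed which members turned back. From day 2 to day 4, 5 of 10 members fell (34.8% of genes changed and 18.5% fell): PMAIP1, BBC3, BAK1, BCL2L11 and BCL2L1, the first 3 by a factor of 2 or more, as did 4.30% of genes. The libraries of 6 members did not overlap between these groups (45.9% of genes). BBC3 fell by 1.06 on the log2 scale (adjusted p = 6.21e-06), BCL2L11 by 0.54 (adjusted p = 0.00135) and BCL2L1 by 0.42 (adjusted p = 0.000615). BAX differed by -0.09 (adjusted p = 0.475) and BID by -0.10 (adjusted p = 0.453). MCL1 differed by -0.20 and lay at the threshold, with an adjusted p from 0.0266 to 0.278 over 20 alternatives, 7 of which passed; it passed without control replicate 1 (0.0424) or 2 (0.0266), day 2 replicate 2 (0.0423) or day 4 replicate 2 (0.0444). Scaling by library totals moved the share of higher genes among those called from 46.9% to 61.1% in this comparison, and the same number of members, 5, changed.

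From day 4 to day 6 a single member changed, BCL2, which rose 2.13-fold (log2 1.09 ± 0.18, adjusted p = 0.000463), in a comparison where 6.78% of genes changed, 3.05% rose, 3.73% fell and 0.468% at least doubled. BCL2 rose in this comparison under each of the 20 alternatives, with log2 values of 1.03 to 1.19. The number of genes called over the whole table, 1174, was less stable: it was 1842 without control replicate 2, 572 without day 4 replicate 1, 685 without day 4 replicate 3, 611 without day 6 replicate 1 and 580 without day 6 replicate 2. BMF (log2 0.46, adjusted p = 0.15) and BCL2L11 (0.28, adjusted p = 0.201) had the next largest differences, and BID, BAK1 and BCL2 were the 3 members whose libraries did not overlap, as was so for 27.6% of genes.

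Between day 2 and day 6, 6 members changed (42.8% of genes): PMAIP1 fell by 1.74 (adjusted p = 9.87e-14), BAK1 by 1.23 (1.48e-10), BBC3 by 0.88 (4.25e-05), BCL2L1 by 0.42 (0.000417) and BID by 0.27 (0.0298), and BCL2 rose by 1.28 (4.62e-06). PMAIP1 and BAK1 fell by a factor of 2 or more (4.65% of genes), BCL2 at least doubled (4.94%), and 8 members had libraries that did not overlap (52.8%). The BID call was lost without day 2 replicate 2 (0.0928) or 3 (0.0662) or day 6 replicate 2 (0.0851) or 3 (0.073), and the log2 difference was -0.11 with library totals (adjusted p = 0.388, 0.0137 to 0.388 over 20 alternatives). MCL1 differed by -0.19 (adjusted p = 0.0516, 0.0271 to 0.762 over 20 alternatives) and passed without control replicate 1 (0.0412) or 2 (0.0271), day 2 replicate 2 (0.0459) or day 6 replicate 2 (0.0498). That scaling moved the median of all genes to 0.16 in this comparison and the share of higher genes among those called from 46.4% to 67.5%.

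Levels per length changed order with exposure. At day 2 PMAIP1 reached 130.5 ± 9.27 RPKM and overlapped MCL1 at 118 ± 7.0 RPKM, whereas in the control every library had less PMAIP1 than MCL1. At day 4 MCL1 led at 102 RPKM, and PMAIP1 (44.0) and BAX (43.8) overlapped. At day 6 MCL1 stood at 103, BAX at 44.9 and PMAIP1 at 39.2 RPKM, the last 2 again overlapping. This closeness depended on the length used. With the longest transcript, mean BAX was 83.4 RPKM against 50.5 for PMAIP1 at day 4, and 85.4 against 45.0 at day 6. BCL2 remained lowest throughout, at 0.201, 0.23 and 0.489 RPKM at days 2, 4 and 6.

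Ratios within a library put the members that bind each other side by side, as descriptions without a test. The ratio of PMAIP1 to MCL1 RPKM lay between 0.432 and 0.456 in the control, 1.03 and 1.22 at day 2, 0.406 and 0.472 at day 4 and 0.364 and 0.414 at day 6. Day 2 was the one group where NOXA mRNA exceeded MCL1 mRNA, and at day 6 the ratio was below the control range. BAX to BCL2 ran from 25.5 to 37.1 in the control, 176 to 280 at day 2, 166 to 208 at day 4 and 86.4 to 96.2 at day 6, so that each exposed group was above the control. BAX to BCL2L1, both of which rose, had closer ranges: 1.31 to 1.47 in the control, 1.17 to 1.29 at day 2, 1.53 to 1.597 at day 4 and 1.497 to 1.79 at day 6. None of these exposed ranges overlapped the control, day 2 being below it and days 4 and 6 above it. BAK1 to BCL2L1 went from between 0.604 and 0.790 in the control to between 0.422 and 0.475 at day 4 and 0.367 and 0.412 at day 6, below all control libraries.

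Summed over the members, pro-death RPKM averaged 94.96 in the control and 220.5 at day 2, then 113 and 108 at days 4 and 6. The pro-survival sum averaged 134, 156, 131 and 132 RPKM. The ratio of the sums was 0.669 to 0.773 in the control, 1.33 to 1.499 at day 2, 0.827 to 0.916 at day 4 and 0.771 to 0.869 at day 6, the day 6 range overlapping that of the control. PMAIP1 made up 53.9% of the pro-death sum in the control and 59.2% at day 2 but 36.3% at day 6, when BAX held 41.4%. These sums, ratios and shares depend on the lengths used. With the longest transcript as the length, BAX had 43.7 RPKM in the control and 85.4 at day 6, in place of 23.0 and 44.9. The sums were not recomputed with those lengths.

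A balance that gives each gene equal weight, the mean log2 CPM of the pro-death members minus that of the pro-survival members, was -1.87, -1.68 and -1.71 in the control libraries and -0.52, -0.42 and -0.66 at day 2. It was -0.95, -1.15 and -1.07 at day 4 and -1.45, -1.36 and -1.29 at day 6. No exposed library overlapped the control, and the group means differed from it by 1.22, 0.70 and 0.39. This direction depended on the mean: with medians in place of means the differences were -0.56, -0.58 and -0.77, with BCL2L1, which rose, as the median pro-survival gene. With the log2 ratio of summed RPKM they were 1.00, 0.29 and 0.21. In the equal-weight balance BCL2, the scarcest member, counts as much as MCL1. BCL2 differed from the control by -1.95, -1.755 and -0.67 on the log2 scale at days 2, 4 and 6. BCL2L1 differed by 1.17, 0.75 and 0.75, and MCL1 by 0.02, -0.18 and -0.18. The rise of the mean balance therefore leans on the fall of a gene with few reads, and a balance without BCL2 was not computed.

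**Figure D4:**
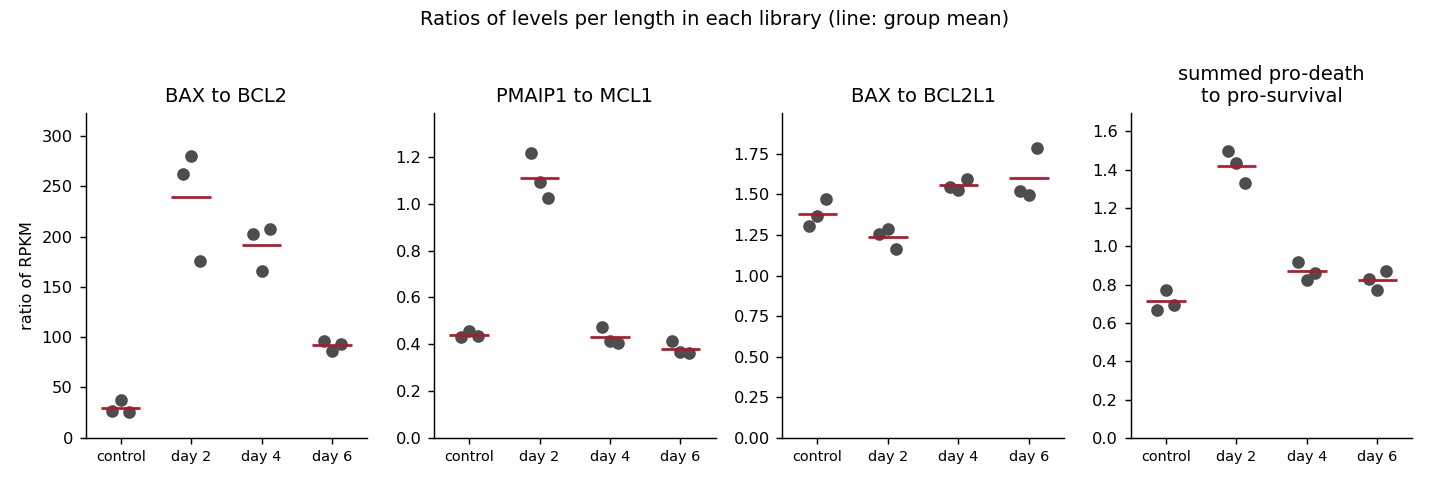
Ratios of RPKM between named members in each of the 12 libraries (points) with the group mean (line), on axes from 0. PMAIP1 to MCL1 exceeds 1 at day 2 alone (1.03 to 1.22), and BAX to BCL2 stays above its control range of 25.5 to 37.1 at every time.

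Other genes of the pathway were counted from lists by function, to be read against the 47.2%, 36.5% and 43.7% of all genes that changed at days 2, 4 and 6. Of 13 further BCL2 family genes, 8 were expressed enough to test: 3 rose and 1 fell at day 2, and 3 rose and 2 fell at days 4 and 6. The 4 of 8 called at day 2 were close to the share of all genes. BNIP3, a mitophagy receptor, rose from 217 ± 12.9 CPM to 382 ± 15.1 at day 2, 394 ± 66.6 at day 4 and 351 ± 18.1 at day 6 (log2 0.82, 0.86 and 0.69). BCL2L2, which encodes the pro-survival BCL-W, rose by 0.58 and 0.62 at days 4 and 6, and pro-survival BCL2A1, at 0.519 CPM in the control, by 1.94 and 1.29. BOK, an effector-like relative of BAX and BAK1, fell from 31.0 ± 1.76 CPM to 19.5 ± 0.39 and 16.8 ± 2.04 at days 4 and 6 (log2 -0.67 and -0.88). BCL2L12, named after its values were seen, was the other gene that fell. The day 2 count of 4 was 2 without control replicate 2 or without day 2 replicate 1. It was 1 with control replicate 2 and day 2 replicate 3 left out together. With all libraries kept, the list median at day 2 was 0.13.

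Downstream of the membrane, 10 of the 11 apoptosome and caspase genes changed at day 2 (6 rose and 4 fell), 7 at day 4 (4 rose and 3 fell) and 5 at day 6 (4 rose and 1 fell), against 47.2%, 36.5% and 43.7% of all genes. The list went both ways, with medians of 0.26, 0.05 and 0.06. APAF1, the scaffold of the apoptosome, rose by 0.96 at day 2 and 0.65 at day 6 and differed by 0.03 at day 4 (adjusted p = 0.853). CASP10, an initiator at death receptors, rose by 1.23, 0.51 and 0.81. The day 4 count of 7 was 4 without control replicate 3. CASP9, CASP2 and DFFB, named after their values were seen, fell at day 2.

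Of 9 inhibitors of apoptosis and their mitochondrial antagonists, 2 rose and 1 fell at day 2, 3 rose and 1 fell at day 4 and 2 rose and 2 fell at day 6, with 47.2%, 36.5% and 43.7% of all genes called at those times. BIRC3, which encodes the ubiquitin ligase cIAP2, had the largest change of the list: it rose from 13.3 ± 2.21 CPM to 106 ± 3.01 at day 2, 41.8 ± 4.55 at day 4 and 35.3 ± 3.47 at day 6 (log2 3.01, 1.66 and 1.41). BIRC2 (cIAP1) rose by 0.51 and 0.39 at days 2 and 4. BIRC5 (survivin), expressed by dividing cells, fell from 130.5 ± 15.1 CPM to 87.6 ± 6.08 at day 2 and 74.2 ± 1.69 at day 6, by 0.57, 0.38 and 0.81 on the log2 scale at the 3 times. XIAP, a direct caspase inhibitor, rose by 0.42 at day 6, where AIFM1, named after its values were seen, was the other gene that fell.

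Of 7 genes listed as outer membrane partners, 3 rose and 1 fell at day 2. At day 4, 3 rose, and at day 6, 1 rose. The first 2 counts were close to the all-gene shares of 47.2% and 36.5%, and the last was below the 43.7% of day 6. The gene that fell was OPA1, whose protein lies at the inner membrane and not the outer. The OPA1 call was lost without day 2 replicate 2 (adjusted p = 0.0517, the highest of 20 alternatives). VDAC1, the main anion channel of the membrane, rose at each time (log2 0.53, 0.49 and 0.30), and VDAC2, which docks BAK1, rose by 0.43 at day 2 from 136 ± 10.5 to 184 ± 14.6 CPM. The day 6 count of 1 was 2 without control replicate 2. Of 8 genes for turnover of MCL1 and BH3-only proteins, 3 rose and 3 fell at day 2, 2 rose and 3 fell at day 4 and 2 rose and 4 fell at day 6, against the same shares. The day 4 count of 5 was 2 without day 4 replicate 1 and 3 without control replicate 1, control replicate 3 or day 4 replicate 3. HUWE1, a ubiquitin ligase for MCL1 named after its values were seen, was among those that fell at each time. FBXW7, a ubiquitin ligase receptor for MCL1, rose at day 2 from 34.2 ± 3.33 to 59.8 ± 2.77 CPM (log2 0.80) and differed by -0.07 and 0.08 later. DUSP6, a phosphatase of the ERK kinases, rose by 0.54, 0.78 and 1.18.

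Among 12 transcription factors known to act on BH3-only genes, 10 were tested, and 7 fell and 3 rose at day 2, while 6 fell at day 4 and 5 at day 6 (23.4%, 17.7% and 21.7% of all genes fell), with list medians of -0.39, -0.39 and -0.26. ATF4, which drives the stress response that can induce PMAIP1 and BBC3, fell from 613 ± 50.5 CPM to 392 ± 39.1, 319 ± 23.8 and 311 ± 13.1. DDIT3 (CHOP), its target in that response and a known inducer of BCL2L11, fell by 1.61 and 1.23 at days 4 and 6, and MYC by 0.41, 1.40 and 1.41. E2F1 fell by 0.90 and 0.41 at days 2 and 4.

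The list of damage response and death receptor genes had the highest medians of the 7 pathway lists, the check of the exposure by CDKN1A and MDM2 left aside. It holds genes known to respond to DNA damage and was drawn up with earlier results of these data known. Its rank is therefore a description and no test. Of 11 tested, 9 rose and 1 fell at day 2, and 7 rose at days 4 and 6 (23.8%, 18.8% and 22.0% of all genes rose), with medians of 1.596, 1.39 and 1.34. FAS, the death receptor, rose from 6.98 ± 0.35 CPM to 66.3 ± 3.33, 29.2 ± 0.40 and 33.5 ± 3.49 (log2 3.25, 2.06 and 2.26). ZMAT3, which encodes an RNA-binding protein, rose from 59.0 ± 6.43 CPM to 309.7 ± 24.9, 270.5 ± 30.4 and 302 ± 20.5, and AEN rose at all 3 times as well. FAS and AEN were highest at day 2, as BBC3 and PMAIP1 were, while ZMAT3, like BAX, was near its day 2 level at day 6. SIVA1, named after its values were seen, was the one that fell at day 2.

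**Figure D5:**
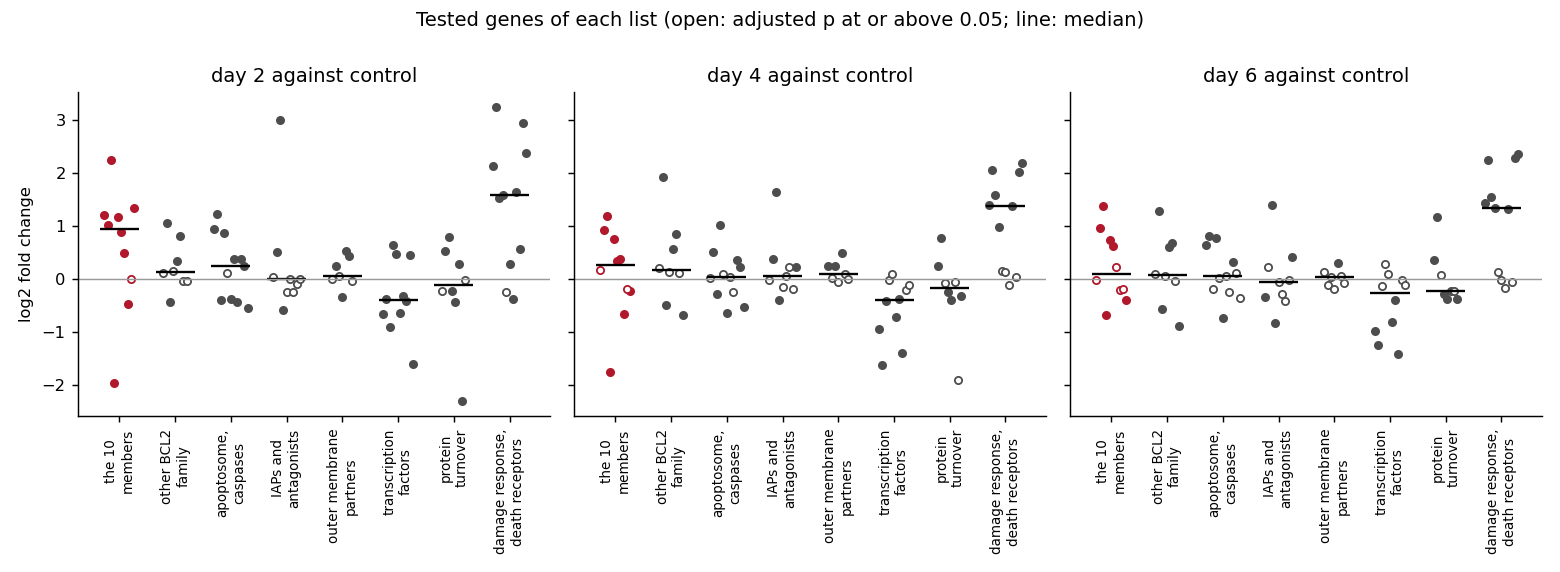
Log2 fold change against the control of every tested gene in the 10 members and in each pathway list at day 2, day 4 and day 6 (open: adjusted p of 0.05 or above; line: list median). Of the 7 pathway lists plotted, the damage response list has the highest medians (1.596, 1.39 and 1.34) and the transcription factor list the lowest (-0.39, -0.39 and -0.26). The lists were chosen with earlier results of these data known, so these ranks are descriptions.

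The genes whose course over the 12 libraries was nearest to that of a member were found by the root mean square difference of log2 CPM after centring each gene on its mean, among 9309 or 9310 genes averaging 10 CPM or more. For PMAIP1, whose own root mean square deviation was 0.69, these were LMCD1 (0.13), MAP3K7CL (0.13) and AMER1 (0.16). LMCD1 went from 26.7 ± 1.69 CPM to 66.3 ± 3.96 at day 2, 23.0 ± 1.28 at day 4 and 21.4 ± 0.02 at day 6, the peak and undershoot seen in PMAIP1. For BBC3 (0.81) they were PDLIM4, LPIN3 and PKP1, each at 0.21, and PKP1 went from 5.52 ± 0.77 CPM to 29.8 ± 0.78, 14.6 ± 0.51 and 14.8 ± 0.90. For BCL2 (0.80) they were UNG (0.31), SLFN13 (0.34) and MCM6 (0.36), farther from BCL2 than the nearest genes were from PMAIP1 or BBC3. UNG, a DNA repair glycosylase, went from 77.4 ± 1.86 CPM to 29.6 ± 4.53, 39.9 ± 1.31 and 54.7 ± 1.80, and MCM6, a subunit of the replicative helicase, from 170.3 ± 7.93 to 70.4 ± 9.78, 76.8 ± 4.82 and 99.1 ± 3.61.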

How the data were processed

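RNA sequencing libraries of AC16 cells were deposited by the authors as raw counts per gene. Per the submitters' processing notes, fastp 0.23.2, Trimmomatic 0.38, STAR 2.7.8, HTSeq 0.13.5 and build GRCh38.p13 were used; the annotation and strand setting are not given in the sources used here. The 10 members and the lists were chosen with earlier results of these data known. Each library was grouped by its title.

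Counts were tested with edgeR 4.0.16 in R 4.3.3: genes were kept by filterByExpr (minimum count 10, minimum total 15), libraries scaled by TMM, and 1 quasi-likelihood model was fitted over all 12 libraries (8 residual degrees of freedom) with Benjamini-Hochberg adjustment over 17320 genes and a threshold of 0.05. CPM values use the scaled library sizes. RPKM used exon union lengths of GENCODE for GRCh38. A script was tested on simulated data first. Intervals are at 95% confidence and SE is that of the log2 fold change; precision is limited by the depth of 14835743 to 21226441 counts. Beyond the members, up to 4 genes of each list with the smallest p among the 4 groups are named, apart from some that are not reported here, and the 3 genes nearest in course to PMAIP1, BBC3 and BCL2. Alternatives were DESeq2 1.42.0, other scalings and filters, the compared groups alone, a replicate block, and each library left out in turn. Replicate numbers were not taken to pair libraries. The pair of libraries left out together was chosen after seeing the data. Promoter sequences are from RefSeq.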

Additional observations from a re-analysis of the deposited data

Results flagged for a closer look

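These results stood out because the exposed groups, set against the same control, differed from each other by a test of the difference itself. From day 2 to day 4, the log2 difference was -1.57 for PMAIP1, -1.06 for BBC3, -1.04 for BAK1, -0.541 for BCL2L11 and -0.419 for BCL2L1. From day 4 to day 6, BCL2 rose by 1.09. From day 2 to day 6, it was -1.74 for PMAIP1, -1.23 for BAK1, -0.879 for BBC3, -0.424 for BCL2L1, -0.269 for BID and 1.28 for BCL2. Groups of 3 libraries were not tested for an outlying value of a single gene.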

How the results depend on the processing

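Depth limits BCL2, BMF and BBC3 most, with as few as 29 counts in a library. No member that passed the test changed direction under any of the 20 alternatives. Same-numbered libraries did not deviate together: of 18 same-number pairs, 0 had a correlation over 0.1 (range -0.171 to 0.0963), and 2 of 12 libraries correlated best with their own number. With the replicate block, 8 members were called at day 2, 7 at day 4 and 6 at day 6, and 962 genes from day 4 to day 6; it lost BMF at day 2 (adjusted p = 0.0531), BCL2L11 at day 4 (0.0575) and MCL1 among the 4 groups (0.0641). Of the counts of members called, leaving out 1 library gave 8 to 9 at day 2, 6 to 9 at day 4 and 6 to 8 at day 6.

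Signs turned in differences that had not passed the test. With library totals, MCL1 at day 2 was -0.11, BAK1 at day 6 0.0165, BCL2L1 from day 4 to day 6 0.0677 and BAX from day 2 to day 6 0.107. Without control replicate 2 and day 2 replicate 3 together, MCL1 at day 2 was -0.096 and BAK1 at day 6 0.0582. For BCL2L1 from day 4 to day 6, the value was 0.00447 with no low-count filter, 0.00407 with at least 1 CPM in 3 libraries and 0.00695 with the compared groups alone. Leaving out 1 library gave -0.0521 to 0.0801 for MCL1 and -0.0821 to 0.0598 for BAK1 in those 2 comparisons, -0.123 to 0.00445 for BAX from day 2 to day 6, and from day 4 to day 6 -0.0353 to 0.0919 for BAX, -0.00896 to 0.369 for BBC3, -0.0354 to 0.0105 for BCL2L1 and -0.0317 to 0.0461 for MCL1.

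The 1174 genes called from day 4 to day 6 became 1837 with the compared groups alone, 2027 without the pair of libraries and 572 to 1842 without 1 library. The balance of pro-death and pro-survival members (1.22, 0.70 and 0.39 at days 2, 4 and 6) was -0.559, -0.581 and -0.769 with medians and 0.998, 0.288 and 0.212 with the log2 ratio of summed RPKM. With the longest transcript as length, control RPKM was 43.7 for BAX, 2.08 for BBC3, 58.7 for PMAIP1, 1.59 for BCL2L11, 10.8 for BID, 1.23 for BMF, 1.22 for BCL2, 21.2 for BCL2L1 and 129 for MCL1. The cause of these shifts was not tested.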
